A study of Mus musculus with 6 samples.

Results

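The heat shock proteins and their DnaJ co-chaperones were examined as a group in fasted mouse liver with and without the kinase Lkb1 in hepatocytes. Members were taken by name from the array annotation: every gene whose symbol begins with Dnaja, Dnajb, Dnajc, Hspa, Hspb, Hspd, Hspe, Hsph or Hsp90, together with Hsf1, Hsf2 and Chordc1 where measured. This gave 74 of the 19938 genes on the arrays. Of these, 49 were placed in the cytosolic and nuclear group, 15 in the endoplasmic reticulum group and 10 in the mitochondrial group. The cytosolic and nuclear group takes every member not placed in the others, so it includes vesicle, cilium and testis members. Of the 77 protein-coding genes that the rule covers in RefSeq, 3 had no probe set of their own (Hsf1, Hsp90ab1 and Hspa1b) and were not analysed here.

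The arrays measured RNA of whole liver from 6 female mice with 1 array per mouse, 3 Lkb1KOlivad mice (KO) and 3 controls (WT). By the study's general methods, mice of both groups carried Lkb1 fl/fl alleles on the FVB/N background. KO mice also carried TTR-CreTam, a tamoxifen-inducible Cre driven by the hepatocyte-specific transthyretin promoter, and the controls were littermates without Cre. The labels of the 6 mice give the genotype group and the female sex, but not the strain or the alleles. The methods say that most studies used males. The study describes 2 injections of tamoxifen (1.5 mg per mouse) at 8 to 12 weeks of age, with most animals studied 15 days later and the fasted state reached after 18 h without food; these are its general methods, and the labels give none of them for the 6 mice. Values below are log2 signals, given in the order B253, B304 and B305 for KO and B256, B267 and B302 for WT, and a difference is the KO mean minus the WT mean on that log2 scale.

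Chaperones of the Hsp70, Hsp90, Hsp60 and small heat shock protein families bind unfolded proteins and help them to reach or regain their shape. DnaJ proteins, through their J domain, bring clients to Hsp70 and trigger its ATPase, and nucleotide exchange factors of the Hsp110 family release the client again. Cytosolic stress raises many of these genes through the transcription factor Hsf1, and stress in the endoplasmic reticulum raises another set through the unfolded protein response, which is active in liver because hepatocytes secrete most plasma proteins.

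The labels were checked on Stk11, the gene that encodes Lkb1. Stk11 signals were 6.52, 6.42 and 6.48 in KO and 8.24, 8.13 and 7.96 in WT, so all KO mice lay below all WT mice (log2 difference -1.64, SE 0.12, limma adjusted p = 0.00705). The 10 hepatocyte markers measured had mean signals from 9.74 to 12.6 and a median difference of 0.03. Of them 1 (G6pc) was higher in KO at an unadjusted p under 0.05, beside 1.52% of all genes. The G6pc difference was 0.56, with all KO mice above all WT mice. The study counts G6pc among the enzymes of gluconeogenesis. All 10 stellate cell and fibroblast markers were at or below 0 in difference (median -0.17), and their mean relative to WT ranged from -0.27 to -0.12 in KO and from -0.16 to 0.08 in WT. Among them Lrat was lower in all KO mice than in all WT mice, at -0.43 (unadjusted p = 0.0127). The 8 sinusoidal endothelial markers had a median of -0.17, with means from -0.17 to -0.09 in KO and from -0.18 to 0.25 in WT. The 7 Kupffer cell and macrophage markers had a median of -0.18, with means from -0.29 to -0.02 in KO and from -0.50 to 0.30 in WT. The part of these shifts in the results on chaperones was not tested, and in whole liver fewer cells of a type and less RNA per cell cannot be told apart.

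No member passed the limma test after Benjamini-Hochberg adjustment over all genes at a threshold of 0.05. Over all genes 1 passed, Stk11, which is 0.00502% of the genes tested. All members had the same adjusted p of 0.9997, and their differences ranged from -0.33 (Hspa2) to 0.82 (Dnajb9). The median difference of the 74 members was 0.03, beside 0.00 for all genes. Of the members 41 were above 0 and 33 below, beside 10284 and 9654 of all genes. By compartment the median was -0.01 in the cytosolic and nuclear group, 0.06 in the endoplasmic reticulum group and 0.08 in the mitochondrial group.

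At an unadjusted limma p under 0.05, 6 members were higher in KO, where 1.52% of all genes were, and 0 members were lower, where 1.51% of all genes were. The 6 were Dnajb9, Dnajb4, Chordc1, Hspa4l, Dnajc22 and Dnajb1, and 4 of them belong to the cytosolic and nuclear group. In 4 members (Dnajb9, Dnajc22, Dnajb4 and Dnajb2) all KO mice lay above all WT mice, a pattern seen in 3.46% of all genes. The opposite pattern, all KO mice below all WT mice, was seen in 0 members and in 3.70% of all genes. With 3 mice a group the exact permutation test cannot go below p = 0.1, so it cannot separate any single gene at 0.05.

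**Figure D1:**
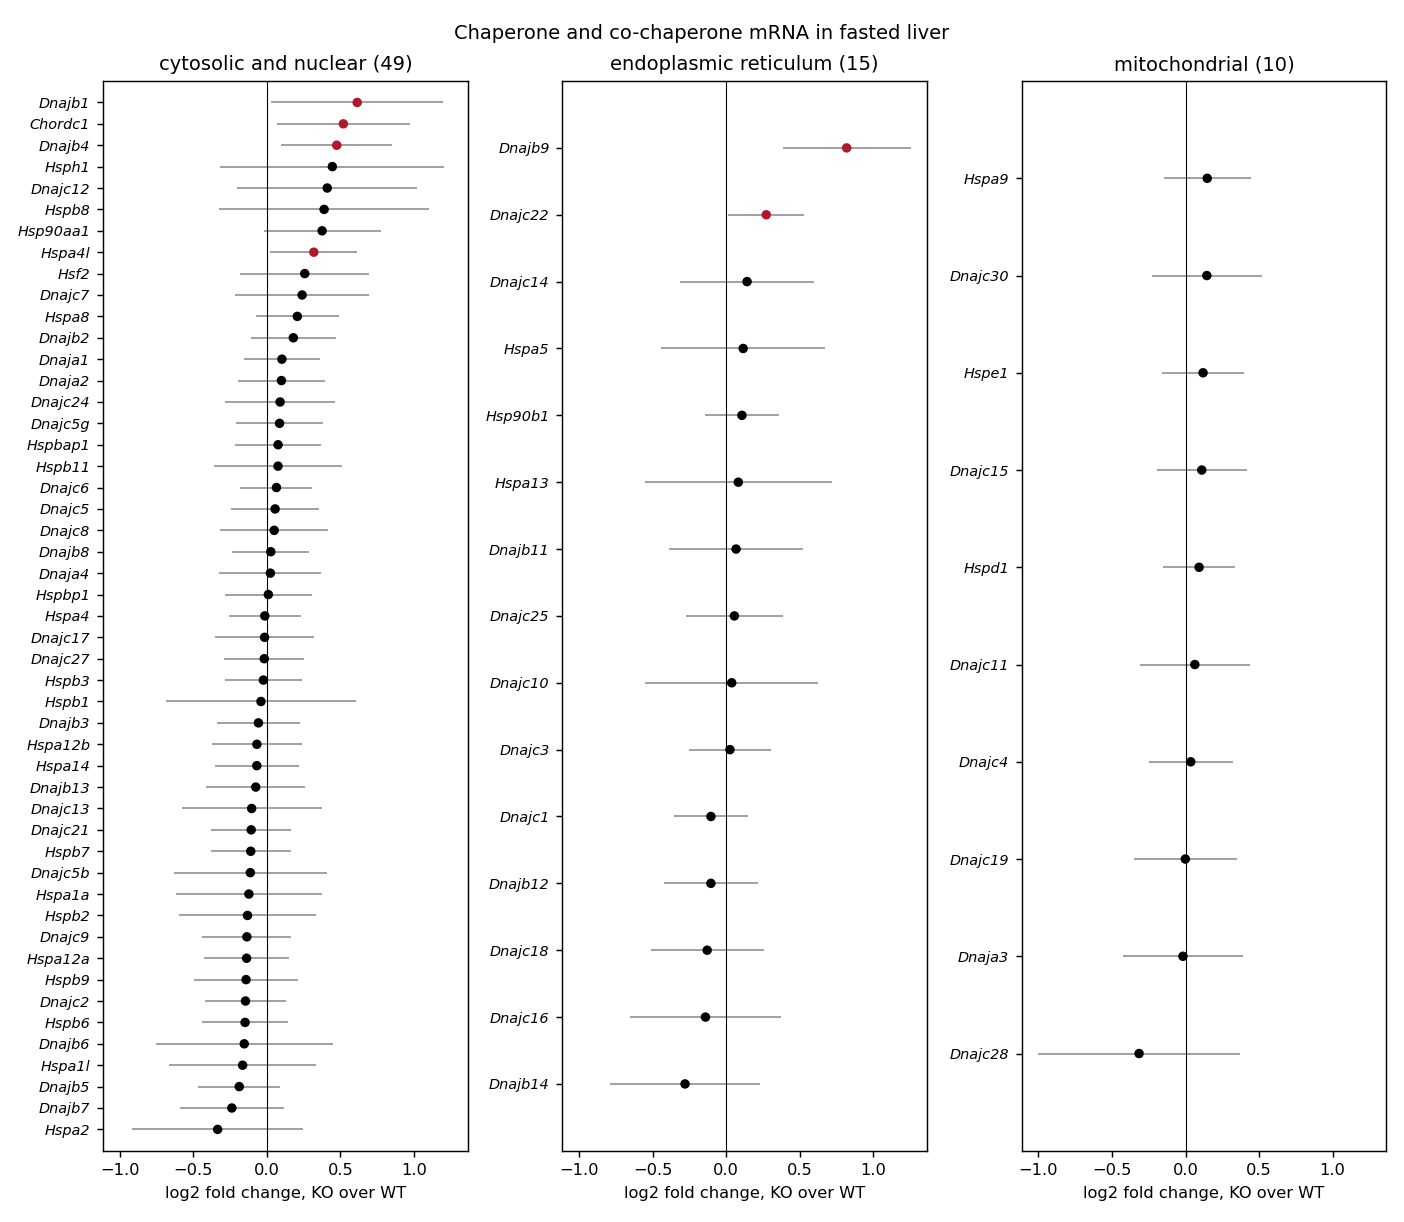
Log2 difference of KO over WT (x axis) for the 74 members by compartment, each point the difference of 3 KO and 3 WT means and each line its 95% limma interval; red points have an unadjusted p under 0.05. Dnajb9, at 0.82, is the highest point, with an interval that overlaps that of Dnajb1, at 0.61. The points run from -0.33 to 0.82.

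The precision is set by the number of arrays. Across the 74 members the 95% interval extended 0.34 on the log2 scale either way at the median, with a narrowest of 0.24 and a widest of 0.76. Of the members, 14 had a mean log2 signal under 5, all in the cytosolic and nuclear group, beside 8747 of all 19938 genes. The arrays carry no detection calls.

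Dnajb9, the endoplasmic reticulum J protein ERdj4, gave the largest difference of any member. It helps the Hsp70 of that compartment, Hspa5, and is a target of the unfolded protein response. Dnajb9 signals were 9.18, 8.69 and 8.39 in KO and 8.03, 7.95 and 7.82 in WT. Every KO mouse lay above every WT mouse, and the KO mice spread more widely, with SDs of 0.40 and 0.10. The difference was 0.82 (SE 0.19, 95% interval 0.38 to 1.25), a 1.76-fold higher signal, with an unadjusted p of 0.00221, an adjusted p of 0.9997 and an exact permutation p of 0.1. B253 was the highest KO mouse, and without it the Dnajb9 difference was 0.61 (unadjusted p = 0.00392).

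The differences of Dnajb9 (0.82, interval 0.38 to 1.25) and Hspa5 (0.12, interval -0.44 to 0.67) had overlapping intervals. They were not tested against each other. With these values known, the promoter of Dnajb9 is shown beside that of Hspa5, its partner in the same compartment. Both are RefSeq sequences of GRCm38.p6, the 250 bases before the start: chr12:44210069-44210318 on the minus strand for Dnajb9 and chr2:34771840-34772089 on the plus strand for Hspa5. Capitals mark a match to the endoplasmic reticulum stress element, written here as CCAAT, any 9 bases and CCACG, searched on both strands.
Dnajb9: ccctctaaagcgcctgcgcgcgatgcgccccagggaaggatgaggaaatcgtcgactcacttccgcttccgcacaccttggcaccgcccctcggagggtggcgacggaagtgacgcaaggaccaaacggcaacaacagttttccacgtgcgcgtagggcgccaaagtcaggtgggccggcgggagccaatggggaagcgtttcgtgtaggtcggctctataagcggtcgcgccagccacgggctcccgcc
Hspa5: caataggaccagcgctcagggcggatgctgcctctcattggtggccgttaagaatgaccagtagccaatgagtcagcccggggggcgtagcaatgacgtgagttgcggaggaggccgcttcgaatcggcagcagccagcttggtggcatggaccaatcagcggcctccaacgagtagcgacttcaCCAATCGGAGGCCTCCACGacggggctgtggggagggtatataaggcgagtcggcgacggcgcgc
The Hspa5 window holds the element once, from -65 to -47 relative to the start. The Dnajb9 window holds no match, which says only that these letters are not in it. Whether the element has a part in the values of either gene was not tested.

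Hspa5, also called BiP, is the Hsp70 of the endoplasmic reticulum and its most used marker of load. Hspa5 signals were 11.81, 11.17 and 10.95 in KO and 11.59, 11.05 and 10.94 in WT. The groups overlapped, and B253 and B256 were the highest mice of their groups. The Hspa5 difference was 0.12 (SE 0.24, 95% interval -0.44 to 0.67, unadjusted p = 0.649), and it turned to -0.14 without B253 and to -0.01 without B302.

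The other chaperones of the lumen differed as little as Hspa5. Hsp90b1, the Hsp90 of the endoplasmic reticulum, read 11.96, 11.89 and 11.91 in KO and 11.91, 11.82 and 11.70 in WT, a difference of 0.11 (SE 0.11). Dnajb11, a J protein that binds unfolded clients in the lumen, read 10.02, 9.46 and 9.34 in KO and 9.76, 9.29 and 9.58 in WT, a difference of 0.07 (SE 0.20). In both genes the groups overlapped. Dnajc3, known as p58IPK, read 10.86, 10.89 and 10.88 in KO and 11.04, 10.73 and 10.79 in WT, a difference of 0.03 (SE 0.12). Its KO mice lay within the WT range. The Dnajc3 value comes from a pair of probe sets with identical values.

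Hspa13, a microsomal Hsp70 relative, showed the pair of high mice most clearly. Its signals were 7.81, 7.12 and 7.18 in KO and 7.89, 7.13 and 6.85 in WT. B253 and B256 stood above the other mice, and the difference was 0.08 (SE 0.28), or -0.14 without B253. Over all 15 endoplasmic reticulum members the mean relative to WT was 0.28, -0.03 and -0.05 in KO and 0.18, 0.00 and -0.18 in WT. B253 and B256 were thus the highest mice for the group as a whole as well. Leaving out both, an alternative chosen after seeing the data, gave a Dnajb9 difference of 0.65 (unadjusted p = 0.00625) and an Hspa5 difference of 0.06.

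**Figure D2:**
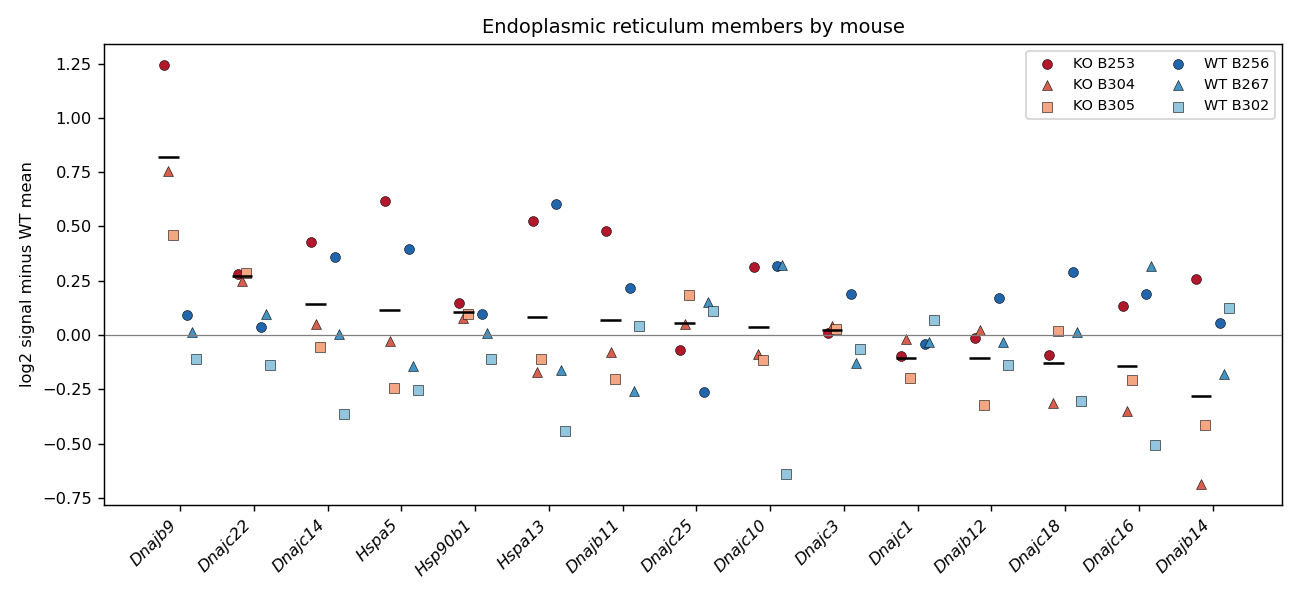
Log2 signal minus the WT mean (y axis) for each of the 15 endoplasmic reticulum members in the 6 mice; points are mice, the bar is the mean of the 3 KO mice and 0 is the mean of the 3 WT mice. Dnajb9 and Dnajc22 are the members whose KO points all lie above their WT points, while B253 and B256 are high together in Hspa5 and Hspa13.

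Dnajc22, a membrane J protein, had the tightest KO values of the 6 members with an unadjusted p under 0.05. Dnajc22 signals were 7.12, 7.09 and 7.12 in KO and 6.88, 6.93 and 6.70 in WT. The groups did not overlap, with SDs of 0.02 and 0.12, and the difference was 0.27 (SE 0.11, unadjusted p = 0.0410). Dnajc14 was next in the compartment, at 0.14 (SE 0.20). The lowest were Dnajc18 at -0.13, Dnajc16 at -0.14 and Dnajb14, a J protein of the membrane, at -0.28. Dnajb14 signals were 7.19, 6.25 and 6.52 in KO and 6.99, 6.76 and 7.06 in WT. B253 was the highest of all mice for Dnajb14 although the KO mean was lower, and without B253 the Dnajb14 difference was -0.55.

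Stress elements were found in the promoters of other members of the compartment as well. In the 250 bases before the start, 3 of the 61 members with a RefSeq promoter held the element (Hspa5, Hsp90b1 and Dnajc3), which is 4.92%, beside 0.13% of 27025 genes. Stretches of 30 bases are given because they hold the match, again in capitals: Hsp90b1 at chr10:86705632-86705661 and chr10:86705527-86705556 on the minus strand, and Dnajc3 at chr14:118937822-118937851 on the plus strand.
Hsp90b1, far site: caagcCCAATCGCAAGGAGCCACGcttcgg
Hsp90b1, near site: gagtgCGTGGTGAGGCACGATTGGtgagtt
Dnajc3: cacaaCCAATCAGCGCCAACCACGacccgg
The near site of Hsp90b1 reads in the other direction. The 3 members that hold the element had differences of 0.12, 0.11 and 0.03, each with an interval that spans 0.

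Of the 25 other folding genes of the endoplasmic reticulum that were listed, such as disulfide isomerases, lectin chaperones and sensors of the unfolded protein response, 1 was higher at an unadjusted p under 0.05 and 0 were lower. It was Ddit3, the stress transcription factor Chop, at 0.51 (unadjusted p = 0.0383). Over all genes 1.52% were higher and 1.51% lower at this threshold. The list's median was 0.15, with 19 above 0 and 6 below, beside 10284 and 9654 of all genes. Its mean relative to WT was 0.50, 0.02 and -0.12 in KO and 0.17, -0.10 and -0.07 in WT. B253 was the highest mouse here too. Edem1, which marks misfolded glycoproteins for disposal, was at 0.36 and the disulfide isomerase Pdia3 at 0.23, neither with a p under 0.05.

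Members known to be induced by heat, most of them cytosolic, lay mainly above 0. The 14 heat-inducible genes, Hspd1 and Hspe1 of the mitochondria among them, were listed with earlier results of these data known, and 13 were measured. Of the 13, 11 were above 0, beside 10284 of all 19938 genes. At an unadjusted p under 0.05, 4 were higher in KO, beside 1.52% of all genes, and 0 were lower. Their median difference was 0.32, beside -0.01 for the cytosolic and nuclear group and 0.00 for all genes, and no test of the list was made. These comparisons are not alike in signal: 0 of the listed genes had a mean signal under 5, beside 14 of that group. Without such dim genes the median of the group was 0.02. Most of the listed genes also belong to that group. The median of the listed genes was 0.17 without B267 and 0.19 without B253. Their mean relative to WT was 0.40, 0.34 and 0.07 in KO and 0.09, -0.18 and 0.08 in WT. B253 and B304 thus lay above all WT mice, while B305 lay within the WT range.

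Dnajb1, the J protein that drives disaggregation with cytosolic Hsp70, had the largest difference in the group. Dnajb1 signals were 7.09, 7.13 and 6.17 in KO and 6.45, 6.14 and 5.95 in WT. B253 and B304 were high, and B305 lay among the WT mice. The Dnajb1 difference was 0.61 (SE 0.26, 95% interval 0.03 to 1.20), a 1.53-fold higher signal, with an unadjusted p of 0.0416. It was 0.47 (unadjusted p = 0.139) without B253 and 0.93 (unadjusted p = 0.000824) without B305.

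Chordc1, an Hsp90 co-chaperone also known as morgana, also had its lowest KO signal in B305. Chordc1 signals were 8.36, 8.27 and 7.68 in KO and 7.82, 7.39 and 7.54 in WT. B253 and B304 were again above all WT mice and B305 was not. The Chordc1 difference was 0.52 (SE 0.20, unadjusted p = 0.0285), and it was 0.39 (unadjusted p = 0.104) without B253.

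Dnajb4, a J protein closely related to Dnajb1, was the heat-inducible member whose groups did not overlap. Dnajb4 signals were 8.30, 8.17 and 8.14 in KO and 7.53, 8.10 and 7.55 in WT. The KO mice lay together, and B267 of the WT group came close to them. The Dnajb4 difference was 0.48 (SE 0.17, unadjusted p = 0.0197). It was 0.66 without B267 (unadjusted p = 0.00101) and 0.33 without both B253 and B256 (unadjusted p = 0.157).

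The Hsp110 family, which releases clients from Hsp70, was represented by Hspa4, Hspa4l and Hsph1. Hspa4l signals were 7.86, 7.86 and 7.59 in KO and 7.36, 7.40 and 7.60 in WT, a difference of 0.32 (SE 0.13, unadjusted p = 0.0375). The groups overlapped only in that B302 of the WT group reached the level of B305. Hsph1 signals were 9.02, 8.92 and 8.13 in KO and 8.49, 7.51 and 8.74 in WT, a difference of 0.45 (SE 0.33, unadjusted p = 0.218). B267 was the lowest mouse for Hsph1, and without it the difference was 0.08. Hspa4, which heat induces little, was at -0.01 (SE 0.11).

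Hsp90aa1 encodes the inducible cytosolic Hsp90. Hsp90aa1 signals were 10.55, 10.53 and 10.35 in KO and 10.09, 9.76 and 10.45 in WT. The groups overlapped through B302. The difference was 0.38 (SE 0.17, unadjusted p = 0.0616), and the 3 probe sets of the gene gave 0.33 to 0.38. Without B302 it was 0.55 (unadjusted p = 0.00626), and without B267 it was 0.21 (unadjusted p = 0.227).

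Hspb8, a small heat shock protein that works with Bag3 in the removal of aggregates, rested on 1 mouse. Hspb8 signals were 10.68, 9.60 and 9.39 in KO and 9.82, 9.23 and 9.45 in WT. B253 stood above every other mouse, and the remaining KO mice lay within the WT range. The Hspb8 difference was 0.39 (SE 0.31, unadjusted p = 0.246), and it was -0.006 without B253.

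The other members of the heat-inducible list differed less. Hspa8, the constitutive cytosolic Hsp70, read 11.77, 11.66 and 11.72 in KO and 11.70, 11.44 and 11.39 in WT, a difference of 0.21 (SE 0.12) with B256 within the KO range. Dnaja1, its farnesylated J partner, read 10.97, 11.00 and 10.99 in KO and 10.78, 10.87 and 11.01 in WT, a difference of 0.10 (SE 0.11). Hspa1a, the classical stress-induced Hsp70, read 5.47, 5.65 and 5.05 in KO and 5.33, 5.26 and 5.95 in WT, a difference of -0.12 (SE 0.22). The groups overlapped in both Dnaja1 and Hspa1a. Hspa1a has a near-identical copy, Hspa1b, so signal may come from either gene.

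Hspb1, the small heat shock protein Hsp25, read 7.01, 7.20 and 7.37 in KO and 7.81, 6.53 and 7.36 in WT. The WT mice B256 and B267 were the highest and the lowest of all, with SDs of 0.18 in KO and 0.65 in WT, and the difference was -0.04 (SE 0.28). Hsf2, a relative of the heat shock factor Hsf1, read 7.13, 7.60 and 7.04 in KO and 6.68, 7.15 and 7.17 in WT, a difference of 0.26 (SE 0.19) with overlapping groups.

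**Figure D3:**
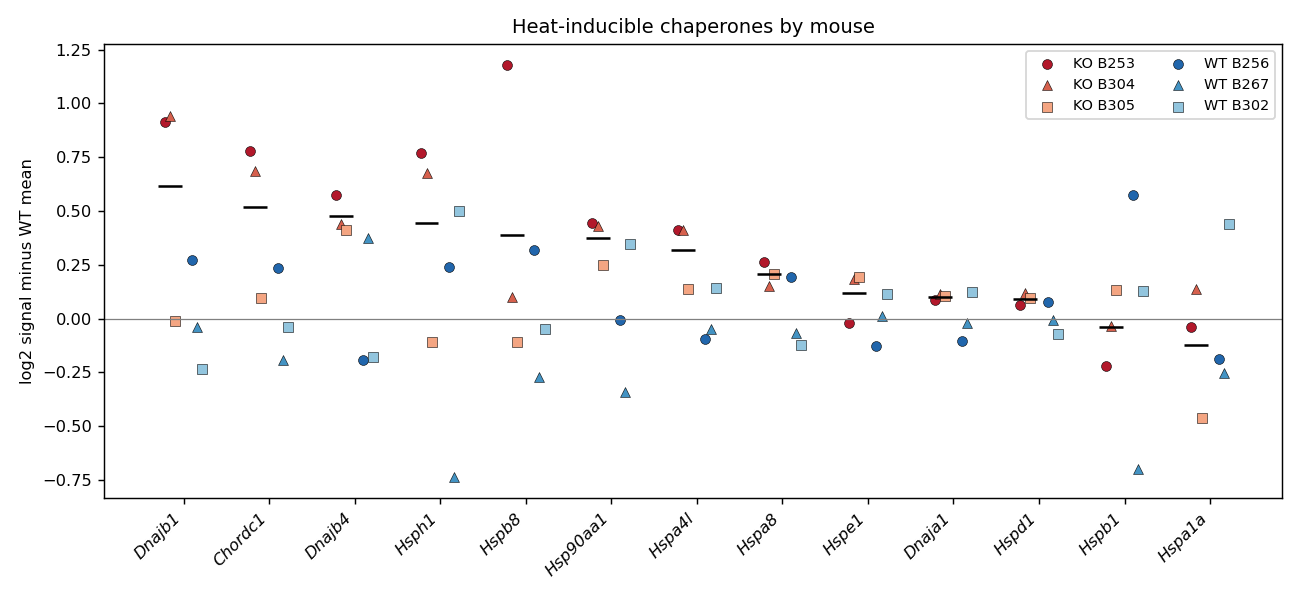
Log2 signal minus the WT mean (y axis) for the 13 measured heat-inducible genes in the 6 mice; points are mice, the bar is the mean of the 3 KO mice and 0 is the mean of the 3 WT mice. In Dnajb1, Chordc1, Hsph1 and Hspa4l the mice B253 and B304 lie above B305, and in Hspb8 B253, whose log2 signal was 10.68, lies apart.

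Heat shock factor binds alternating GAA and TTC units with a pair of any bases between them. A promoter match of 2 units (GAANNTTC or TTCNNGAA, each its own reverse complement, so the same on both strands) was found in 13 of the 61 members, 21.3%, beside 14.5% of 27025 genes. A match of 3 units was found in 3 members (Dnajb6, Hspd1 and Hspe1), 4.92%, beside 0.514% of genes, and every such match also counts as a match of 2 units. The heat-inducible members with a match are given as 30 bases around it, so that the units, in capitals, can be set beside the values above. The sites are Hspe1 chr1:55088053-55088082 (plus strand), Hsph1 chr5:149636351-149636380 (minus), Dnajb4 chr3:152193846-152193875 (minus), Hspa1a chr17:34972242-34972271 (minus) Hspb1 chr5:135887791-135887820 and chr5:135887811-135887840 (plus) and Dnaja1 chr4:40722333-40722362 (plus), all GRCm38.p6. Hspd1 holds the same stretch as Hspe1, read on the minus strand, since the 2 genes start on either side of it.
Hspe1: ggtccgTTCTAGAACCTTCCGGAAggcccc
Hsph1: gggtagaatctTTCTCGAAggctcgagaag
Dnajb4: gttcgttcgttcgctgTTCTAGAAagtaca
Hspa1a: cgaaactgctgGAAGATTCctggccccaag
Hspb1, far site: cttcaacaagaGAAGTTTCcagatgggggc
Hspb1, near site: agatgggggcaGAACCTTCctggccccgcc
Dnaja1: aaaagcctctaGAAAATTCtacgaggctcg
Of these 7 genes, Dnajb4 had an unadjusted p under 0.05, Hspa1a and Hspb1 were below 0, and Hsph1, Hspe1, Dnaja1 and Hspd1 were above 0 without passing it. The windows of Dnajb1, Chordc1, Hspa4l, Hspb8 and Dnajb9 held no match to either heat shock form.

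The remaining cytosolic and nuclear members lay on both sides of 0. Dnajc12, a co-chaperone of the aromatic amino acid hydroxylases, had a mean of 6.09 (SD 0.57) in KO and 5.68 (SD 0.27) in WT, a difference of 0.41 (SE 0.27, unadjusted p = 0.162). B253 was the high mouse for it, at 6.71, and the other KO mice lay in or just above the WT range. Dnajb2, a J protein that binds ubiquitylated clients, read 5.70, 5.44 and 5.40 in KO and 5.40, 5.22 and 5.38 in WT. Its groups did not overlap, though by a narrow margin, and the difference was 0.18 (SE 0.13, unadjusted p = 0.191).

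The lowest cytosolic members were Hspa2, Dnajb5 and Dnajb6 among those with a mean signal of at least 5. Hspa2, an Hsp70 best known from testis, read 5.69, 5.81 and 5.37 in KO and 6.38, 6.16 and 5.34 in WT, a difference of -0.33 (SE 0.25, unadjusted p = 0.222). B302 of the WT group was the lowest mouse for Hspa2, so the groups overlapped. Dnajb5 was at -0.19 (SE 0.12) and Dnajb6, which holds back aggregation of polyglutamine proteins, at -0.15 (SE 0.26). Dnajc13, an endosomal J protein, has 15 probe sets, which gave -0.42 to 0.12 with 5 above 0.

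By family, the 45 DnaJ members had a median of 0.03 and the 12 Hspa members a median of -0.04. At an unadjusted p under 0.05, 4 DnaJ members and 1 Hspa member were higher in KO, beside 1.52% of all genes, and 0 were lower. The 8 Hspb members had a median of -0.07, with 2 above 0 and 6 below, and 0 had an unadjusted p under 0.05.

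The listed co-chaperones and related genes outside the rule, most of them cytosolic, include the Bag proteins and the Hsp90 partners Stip1, Cdc37 and Fkbp4. Of 23 measured, 0 were higher and 1 lower at an unadjusted p under 0.05. The lower gene was Tomm34, which hands precursors from Hsp70 and Hsp90 to mitochondria, at -0.32 (unadjusted p = 0.0432). Over all genes 1.51% were lower at that threshold. The median of the 23 was 0.07. Fkbp4 was at 0.29 and the small heat shock protein Cryab at 0.26. The 14 subunits of the chaperonin CCT and of prefoldin, which fold actin and tubulin, had a median of 0.12. Of these, 12 were above 0, beside 10284 of all 19938 genes, and 0 had an unadjusted p under 0.05.

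The mitochondrial members had differences from -0.32 to 0.15, and 0 of 10 had an unadjusted p under 0.05 in either direction. Hspa9, the mitochondrial Hsp70 also called mortalin, read 11.40, 11.42 and 11.39 in KO and 11.45, 11.25 and 11.05 in WT, a difference of 0.15 (SE 0.13). Hspd1, the Hsp60 that folds proteins in the matrix, read 11.45, 11.51 and 11.48 in KO and 11.47, 11.38 and 11.32 in WT, a difference of 0.09 (SE 0.11). Hspe1, its Hsp10 lid, read 11.50, 11.71 and 11.72 in KO and 11.40, 11.54 and 11.64 in WT, a difference of 0.12 (SE 0.12). The groups overlapped in all 3 genes, and all 3 upper interval bounds were at most 0.44.

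Dnaja3, the J partner of Hspa9 in the matrix, read 9.07, 9.13 and 9.08 in KO and 9.50, 8.76 and 9.09 in WT, a difference of -0.02 (SE 0.18). The KO mice lay together inside the WT range. Dnajc30 was at 0.14 (SE 0.17) and Dnajc19, of the protein import motor, at 0.00 (SE 0.15). Dnajc28 was lowest at -0.32 (SE 0.30), with 4.98, 4.81 and 5.37 in KO and 4.95, 6.13 and 5.03 in WT. B267 alone was high for Dnajc28, and without it the difference was 0.07. The 13 mitochondrial folding genes outside the rule, such as Trap1, Lonp1 and Clpp, had a median of 0.05 and 0 with an unadjusted p under 0.05.

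The mouse numbers in the labels fall into B253, B256 and B267 on the one hand and B302, B304 and B305 on the other, and the labels do not say what the numbers stand for. B253 is the only KO mouse of the first set, and B302 is the only WT mouse of the second. Each difference within a set thus rests on that mouse. Within these sets Dnajb9 was higher in KO in both, by 1.19 in the first and 0.72 in the second. Dnajb1 (0.80 and 0.70), Chordc1 (0.76 and 0.43) and Dnajb4 (0.48 and 0.60) also kept their direction. Other heat-inducible members did not keep their size: Hsph1 was at 1.02 and -0.22, Hsp90aa1 at 0.62 and -0.01, and Hspb8 at 1.16 and 0.04. With the number set as a block, Dnajb9 was at 0.95 (unadjusted p = 0.00031), and Dnajc12, at 0.60, and Dnajc5b, at -0.32, came to an unadjusted p under 0.05 while Hspa4l did not (0.0608). Dnajc12 rested on B253: its difference was 0.10 without that mouse and 0.018 without B253 and B256. Dnajc5b is dim, with a mean log2 signal of 3.85.

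**Figure D4:**
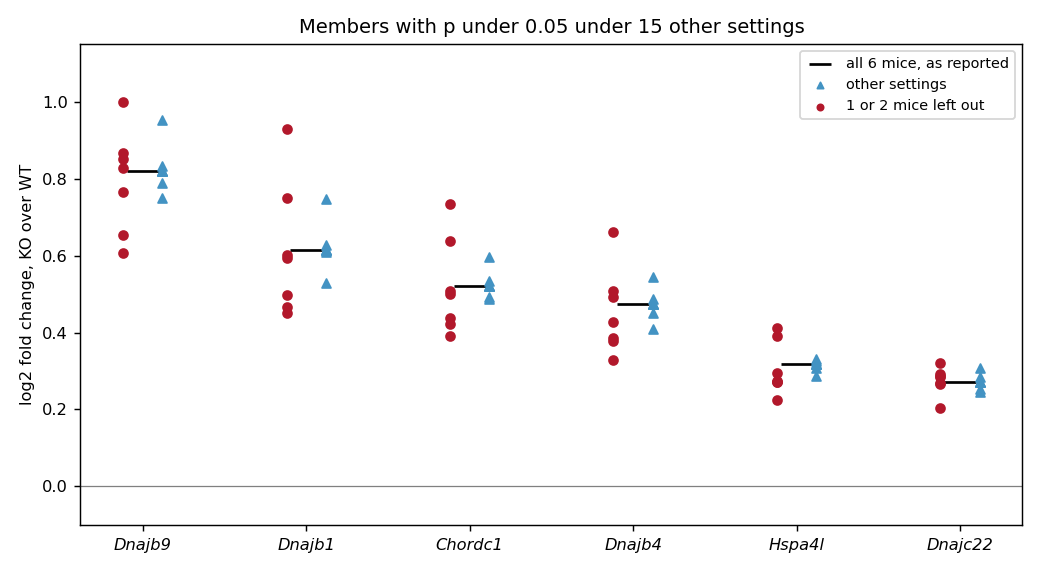
Log2 difference of KO over WT (y axis) for the 6 members with an unadjusted p under 0.05; the black bar is the value from all 6 mice, circles leave out 1 or 2 mice and triangles are other settings. All points lie above 0, and Dnajb9 runs from 0.61 to 0.999.

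The genes whose signals followed Dnajb9 most closely over the 6 mice, of 11191 genes with a mean signal of at least 5, were Alkbh2 (Pearson r 0.980), Mrfap1 (0.979), Mtif3 (0.975), Rusc2 (0.973) and Clic4 (0.967). These values describe 6 mice in 2 groups that differ in Dnajb9 and carry no test. None of the 5 is a member.

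Cold-induced and clock genes were listed because some of them respond to body temperature and feeding, as heat-inducible chaperones do. Of 13 measured, 0 were higher at an unadjusted p under 0.05, beside 1.52% of all genes. At the same threshold 1 was lower, beside 1.51% of all genes. It was Cirbp, the cold-inducible RNA-binding protein, at 6.24, 6.08 and 6.86 in KO and 7.21, 7.09 and 7.18 in WT (difference -0.76, SE 0.19, unadjusted p = 0.00367). All KO mice were below all WT mice, a pattern seen in 3.70% of all genes. B253 and B304, the highest mice for the heat-inducible list, were the lowest for Cirbp. Whether body temperature or feeding had a part was not tested. Rbm3, another cold-induced RNA-binding protein, was at 0.00 (SE 0.21).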

How the data were processed

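Liver RNA of 3 KO and 3 WT mice was measured on Affymetrix gene arrays, 1 array per mouse, and groups come from the genotype labels. The deposited values are log2 signals that the authors made with RMA, which corrects background, normalizes between arrays and summarizes probes. The labels name RMA and Partek and the methods other software, with versions not given in the sources used here. Values were used as deposited and raw images were not used here.

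Of 35556 probe sets, 21789 carried 1 gene symbol in an annotation of an earlier array generation than the methods name and were used, 1621 carried several and 12146 none. For the 999 genes with several probe sets the brightest over the 6 arrays was taken. Under R 4.3.3, a limma 3.58.1 model without covariates (lmFit, then eBayes; two-sided p) compared the groups over all 19938 genes, with Benjamini-Hochberg adjustment over all of them; the fit was tested on simulated data. No intensity filter was applied. The alternatives were quantile normalization, median centring, leaving out dim genes, averaging probe sets, a trended robust variance and array weights. Others were an ordinary t-test on each gene, the mouse number as a block, and leaving out mice. That t-test is the kind the methods give for group comparisons, not their array software. That the 6 mice are separate animals comes from their numbers in the labels. Promoter motifs were searched in RefSeq sequences with Python 3.11.15; 13 members had none in the table. Protein sequences were not used here.

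Genes named in the text were members with an unadjusted p under 0.05, the 3 highest and 3 lowest of each compartment with a mean signal of at least 5, a fixed set of main chaperones, and up to 3 genes with the smallest p of each other list. Hspb8, Hspa4, Hspa13, Dnajc12, Dnajc13, Dnajc5b and Dnajb2 were added after their values were seen. Rbm3, Stip1, Cdc37, Lonp1, G6pc, Lrat and Nkg7 were also named outside this rule. Members and lists were chosen with earlier results of these data known. The remaining marker lists had medians of 0.08 (4 cholangiocyte genes), -0.03 (5 smooth muscle genes), -0.09 (7 T and NK cell genes), -0.03 (5 skeletal muscle genes) and -0.02 (4 testis genes, which liver lacks).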

Additional observations from a re-analysis of the deposited data

How the results depend on the processing

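No member was called at an adjusted p under 0.05 in any of the 15 alternatives. The 6 members higher at an unadjusted p under 0.05 became 2 with the ordinary t-test. They became 2 without B253 and B256, chosen after seeing the data, and 1 to 6 when each mouse was left out. The count was 1 without B253, 2 without B304, 3 without B267 and 3 without B302. The 0 lower members became 1 with the mouse number block, 1 without B253 and B256, and 0 to 2 when each mouse was left out. Dnajb9 kept an unadjusted p under 0.05 in all 15 alternatives, with a lowest adjusted p of 0.475. The median of the endoplasmic reticulum members ranged from -0.11 to 0.16 when each mouse was left out, that of the cytosolic and nuclear members from -0.04 to 0.02, and that of the heat-inducible genes from 0.17 to 0.41.

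Of 38 named members, 20 kept their direction throughout, and 46 of 569 values reversed; the cause was not tested. With array weights Dnaja3 was 0.0074, Dnajc19 0.042, Hspb1 0.055, Dnajc5b 0.0097 and Hspa13 -0.015, with median-centred arrays Dnajc19 was 0.012, and with the block Dnajc16 was 0.054 and Dnajc13 0.0019. Without B253 and B256 Dnaja3 was 0.19, Dnajb11 -0.032, Dnajb6 0.015, Dnajc13 0.069 and Hspb1 0.34. When each mouse was left out, the differences ranged from -0.20 to 0.17 for Dnaja3, -0.14 to 0.20 for Dnajb11, -0.44 to 0.059 for Dnajb6, -0.039 to 0.32 for Dnajc14, -0.39 to 0.018 for Dnajc16, -0.28 to 0.015 for Dnajc18, -0.14 to 0.077 for Dnajc19, -0.53 to 0.065 for Dnajc28, -0.038 to 0.12 for Dnajc3, -0.026 to 0.26 for Dnajc30, -0.25 to 0.096 for Hspa1a, -0.14 to 0.31 for Hspa5, -0.39 to 0.25 for Hspb1, -0.25 to 0.13 for Dnajc13, -0.26 to 0.11 for Dnajc5b, -0.14 to 0.38 for Hspa13, -0.039 to 0.019 for Hspa4 and -0.0060 to 0.64 for Hspb8. No paired analysis was possible because the labels give the mice no replicate numbers that the groups share.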
